A study of Mus musculus with 4 samples.

Results

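Metalloproteases that cut the extracellular matrix or the cell surface, together with their inhibitors, were followed in endothelial cells sorted from the lungs of mice under pressure overload of the heart. Members were the genes of the deposited table whose symbols are a numbered Mmp, Adam, Adamts, Adamtsl or Timp, which gave 69 of 17915 genes: 21 Mmp, 21 Adam, 18 Adamts, 5 Adamtsl and 4 Timp genes. All mice had the genotype Cdh5-CreER;aSMA-LSL-Dre;NR1, had been dosed with tamoxifen 5 times, and were 6 weeks past TAC, transverse aortic constriction, a surgical narrowing of the aorta. Cdh5-CreER is a tamoxifen-dependent Cre driven in endothelium, aSMA-LSL-Dre places Dre recombinase under the alpha smooth muscle actin gene once Cre has acted, and NR1 is the reporter. ZsGreen+ cells are endothelial cells that Cre has marked, and tdTomato+ cells are those in which the actin gene has at some time been active, even briefly. Each group had 2 libraries of bulk RNA, labelled as biological replicates, and no animals without TAC are among them. The labels do not say whether the libraries came from separate mice, so each p-value reflects the spread of the libraries, which may be technical. The labels used here give neither the age nor the sex of the mice.

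Matrix metalloproteinases (MMPs) are zinc enzymes, secreted or held in the membrane, that degrade collagens, elastin and other matrix proteins, and the tissue inhibitors of metalloproteinases (TIMPs) block them by binding the active site. ADAMs are membrane proteins of which many release the outer parts of cytokines, adhesion molecules and receptors from the cell surface, while others lack a working active site and act in adhesion. ADAMTS enzymes are secreted and cut proteoglycans, procollagens or other matrix and plasma proteins. ADAMTS-like (ADAMTSL) proteins share their accessory domains but have no protease domain, and several bind fibrillin microfibrils.

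The proteases of these families share a zinc-binding stretch in the active site, whose 3 histidines hold the metal and whose glutamate takes part in catalysis. The coding bases of this stretch were read from the longest complete coding transcript of each member in GENCODE M21, on GRCm38, and are shown for proteases that the results turn on, to let the families be compared. Capitals mark, in order, the codons of the first histidine, the glutamate, the second histidine, a glycine and the third histidine, over 33 bases and 11 codons.
Mmp2: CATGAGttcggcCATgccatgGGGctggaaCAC
Mmp9: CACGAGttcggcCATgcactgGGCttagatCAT
Mmp14: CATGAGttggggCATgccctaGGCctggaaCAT
Mmp15: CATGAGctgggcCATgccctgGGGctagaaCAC
Adam8: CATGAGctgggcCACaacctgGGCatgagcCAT
Adam10: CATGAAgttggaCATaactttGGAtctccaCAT
Adam15: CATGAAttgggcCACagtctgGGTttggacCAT
Adam17: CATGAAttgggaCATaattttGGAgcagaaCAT
Adamts2: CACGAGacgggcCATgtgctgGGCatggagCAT
Adamts5: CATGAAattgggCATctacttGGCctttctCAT
Adamts7: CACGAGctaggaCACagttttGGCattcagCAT
Adamts10: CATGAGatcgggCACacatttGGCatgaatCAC
In a smaller set of ADAMTS genes an asparagine codon takes the place of the glycine codon. In the stretches shown next, the capitals AAC mark that asparagine codon.
Adamts1: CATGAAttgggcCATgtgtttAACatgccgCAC
Adamts4: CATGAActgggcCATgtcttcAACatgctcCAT
Adamts15: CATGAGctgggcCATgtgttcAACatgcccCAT

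All 21 Mmp genes held the glycine form, each within a single exon. On the plus strand it lay at chr8:92839279-92839311 in Mmp2, at chr2:164951133-164951165 in Mmp9, at chr14:54437627-54437659 in Mmp14 and at chr8:95368585-95368617 in Mmp15. The stretch was present in 13 of 21 Adam genes, 12 of them within a single exon. It lay on the minus strand at chr7:139987893-139987925 in Adam8, at chr3:89344780-89344812 in Adam15 and at chr12:21336732-21336764 in Adam17, and in Adam10 an intron split it, between chr9:70754296-70761585 on the plus strand. In all 17 Adamts genes that held a form of it the stretch was split by an intron, and 12 had the glycine form and 5 the asparagine form (Adamts1, Adamts4, Adamts9, Adamts15 and Adamts20). The spans, intron included, were chr17:33538157-33538279 in Adamts10, chr9:90179456-90180640 in Adamts7, chr11:50775403-50776134 in Adamts2 and chr1:171253210-171253915 in Adamts4 on the plus strand, and chr16:85878015-85887826 in Adamts5, chr16:85799191-85799545 in Adamts1 and chr9:30911255-30911690 in Adamts15 on the minus strand. Neither form was found in Adamts8, in the 8 other Adam genes, in the 5 Adamtsl genes or in the 4 Timp genes. A stretch with any other codon in place of the glycine or asparagine would be missed, so absence here does not mean an inactive protease. Adamts8 is annotated with a zinc metalloprotease domain in the deposited data. The cysteine switch is the propeptide motif that keeps an MMP inactive until it is removed. Only codons of its exact form, proline-arginine-cysteine-glycine, were searched, in frame over the whole coding sequence. They were found in 17 of 21 Mmp genes, and not in Mmp11, Mmp17, Mmp23 or Mmp25, and also in Adam4. Variants of the motif would be missed by this search.

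The 4 libraries held 17050673 to 18574737 estimated counts over coding genes. Acta2, the gene whose past activity defines tdTomato+ cells, stood at 304 and 528 CPM in tdTomato+ replicates 1 and 2 against 87.6 and 82.9 CPM in ZsGreen+ replicates 1 and 2, and passed the test (adjusted p = 0.0432, edgeR). CPM values are counts relative to the scaled total of their library and compare a gene between libraries, and values are given in this order of libraries throughout. Of 13177 genes tested, 40 passed. The 10 endothelial markers summed to 8807 and 8435 CPM in tdTomato+ and 11463 and 9563 in ZsGreen+ cells, and all were detected. Markers of other cells were present too: 10 fibroblast genes summed to 162 and 280 against 63.3 and 74.5 CPM, and 10 macrophage and monocyte genes to 5456 and 2561 against 3031 and 668 CPM. None of these 20 genes was at 0. Alveolar epithelial genes summed to 461 and 548 against 344 and 208 CPM. Airway epithelial genes summed to 77.0 and 73.1 against 57.1 and 412 CPM, and Scgb1a1 gave 384 CPM of the last value. Pericyte and smooth muscle genes summed to 29.1 and 48.0 against 32.9 and 38.1 CPM, with overlap. In bulk RNA, fewer cells of a type and less RNA per cell cannot be told apart.

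Of the 69 members, 47 had enough counts to be tested (15 Mmp, 3 Timp, 12 Adam, 12 Adamts and 5 Adamtsl). TPM values, which are scaled to gene length and to a common sum in each library, were used for levels between genes. The disintegrin Adam15 was the highest member, at 389 and 485 TPM in tdTomato+ and 365 and 412 TPM in ZsGreen+ cells. Adamts1 and Timp3 came next, with a mean of 225 TPM each over the 4 libraries and ranges that overlapped, from 165 to 250 TPM for Adamts1 and from 140 to 335 TPM for Timp3. Timp2, at 143 to 178 TPM, overlapped Timp3, and Timp1, at 89.3 to 131 TPM, lay below both. The MMP transcript with the highest mean was the membrane-bound Mmp14, at 59.0 to 67.6 TPM. Mean levels of 10 TPM or more were reached by 13 tested members and of 1 TPM or more by 34.

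**Figure D1:**
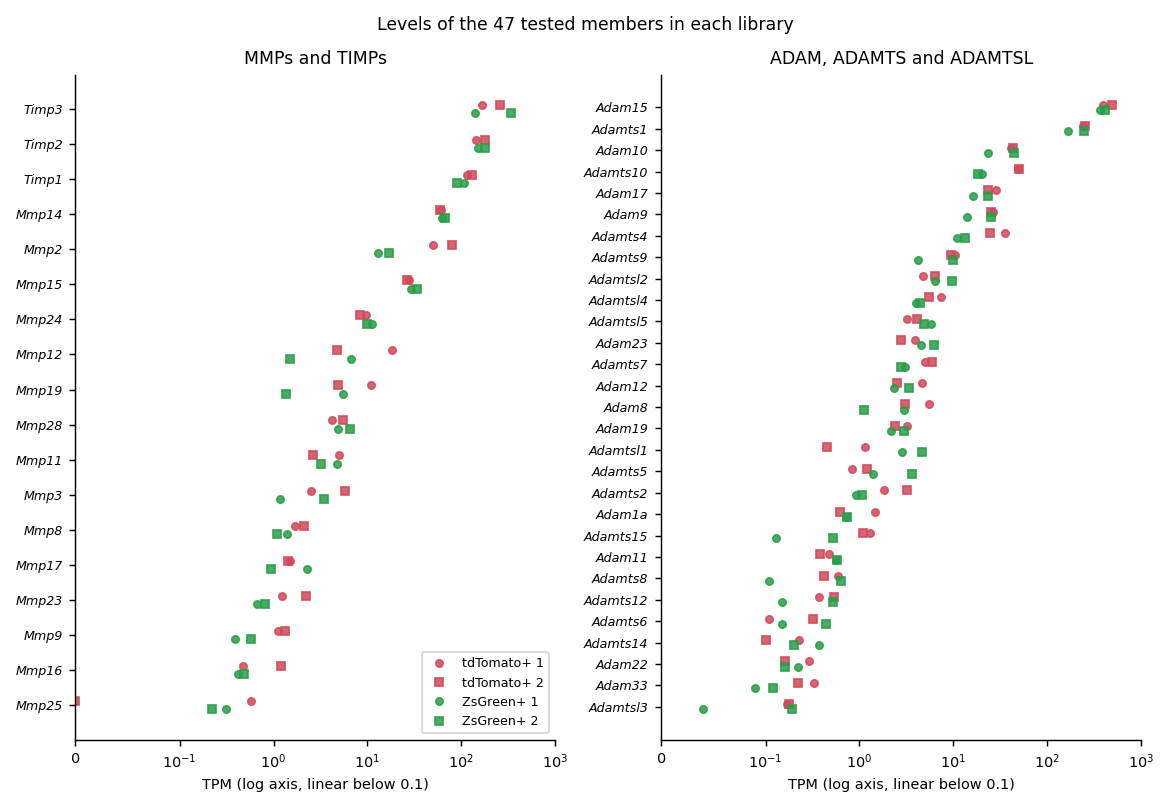
TPM (log axis, linear below 0.1) of each tested member in each library, with tdTomato+ in red and ZsGreen+ in green, circles for replicate 1 and squares for replicate 2. Adam15, Adamts1 and the TIMPs stand above all MMPs, and the groups are apart for Mmp2, Adamts10 and Adamts4 and overlap for Adamts1, Timp2 and Timp3.

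No member passed the adjusted threshold of 0.05 in edgeR's quasi-likelihood test, against 0.304% of all genes tested. At an unadjusted p under 0.05, 6 members stood higher in tdTomato+ cells (Mmp2, Adamts10, Adamts4, Adamts2, Adamts15 and Adamts7), where 5.62% of all genes did, and 3 stood lower (Adamtsl1, Adamts5 and Adam23), where 3.15% did. Of these 9, DESeq2 called 4 at an adjusted p under 0.05 (Mmp2, Adamts4, Adamts10 and Adamtsl1) against 2.44% of all genes, while limma-voom and limma on TPM called 0. In CPM, both tdTomato+ libraries lay above both ZsGreen+ libraries for 14 of the 47 members, where 19.9% of all genes did so, and below for 10, where 18.2% of all genes did. The groups overlapped for the other 23. On TPM 12 of the 14 and 8 of the 10 were also apart, and 15 members in all lay higher, with Mmp8, Timp1 and Adam8 added. The median log2 fold change of tested members was 0.21, with 29 positive and 18 negative, against a median of -0.007 over all genes, and the median absolute log2 fold change was 0.39 against 0.22. The ADAMTS family held 6 of the 9 members at an unadjusted p under 0.05, the MMPs, ADAMs and ADAMTSL proteins 1 each, and the TIMPs 0.

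**Figure D2:**
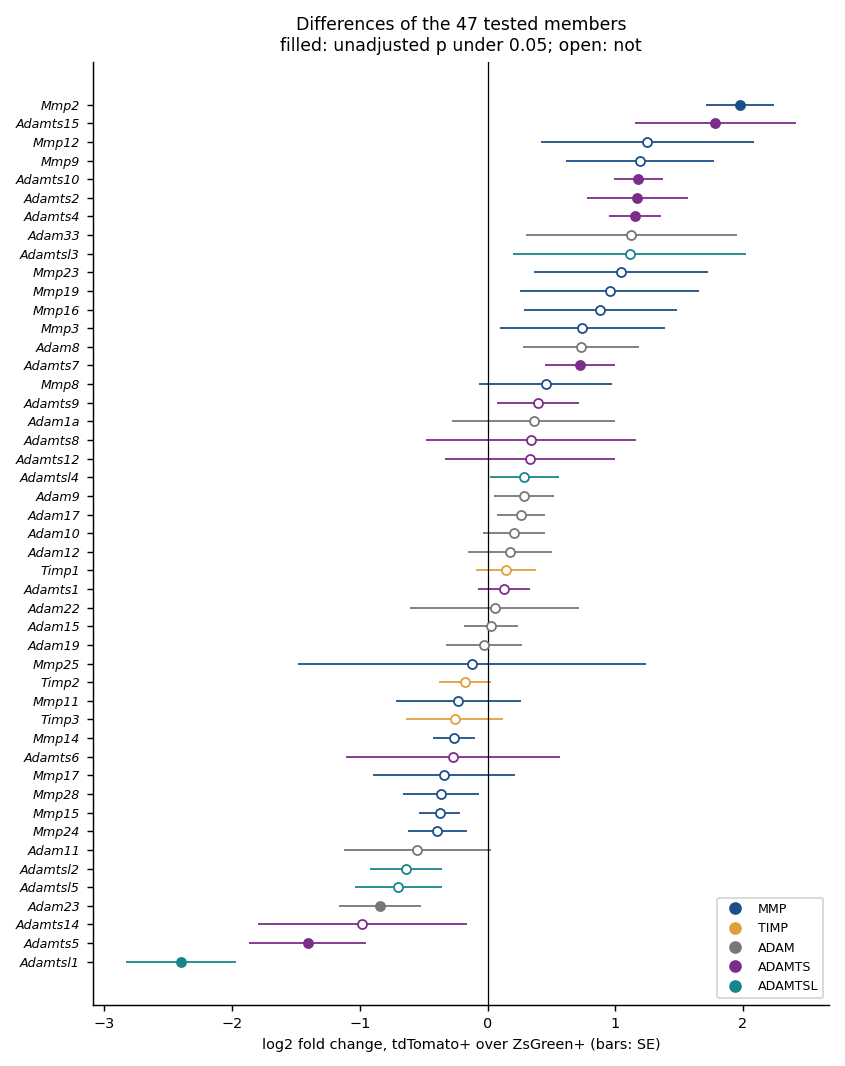
Log2 fold change of each tested member, tdTomato+ over ZsGreen+, with bars for the standard error, coloured by family and filled where the unadjusted edgeR p was under 0.05. Mmp2 lies at the top with 1.98 and Adamtsl1 at the bottom with -2.40, and the TIMPs, Adam15 and Adamts1 lie near 0.

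Mmp2 (NCBI Gene 17390), on chr8:92827290-92853421, encodes gelatinase A, which cuts type IV collagen and denatured collagen. Mmp2 stood at 88.5 and 147 CPM in tdTomato+ replicates 1 and 2 and at 28.3 and 31.5 CPM in ZsGreen+ replicates 1 and 2, from 1609 and 2801 against 447 and 575 estimated counts. Both tdTomato+ libraries lay above both ZsGreen+ libraries, with group means of 118 ± 41.4 against 29.9 ± 2.27 CPM (SD, n = 2). The difference was 3.94-fold (log2 fold change 1.98, SE 0.27), and its adjusted p was 0.0525 in edgeR, place 42 of 13177 genes by p. Over the alternatives other than a replicate block, whose values are given with the limits, the adjusted p ran from 1.24e-08 with DESeq2 to 0.254 without tdTomato+ replicate 2, and the log2 fold change from 1.59 to 2.30. The fibroblast marker sums given above had the same order over the 4 libraries as Mmp2. Col1a1 was the largest part of that sum in each library, and among the listed genes only Col1a1 and Clec3b had that order. In Pi16, Dcn, Mfap5 and Col14a1, ZsGreen+ replicate 1 lay above ZsGreen+ replicate 2. Of 10 fibroblast genes 6 were apart in the same direction (19.9% of all genes). Among them were Col1a1 (65.4 and 144 against 23.2 and 46.3 CPM) and Pi16 (61.4 and 79.3 against 18.2 and 7.01 CPM). Pdgfra, a defining fibroblast receptor, stood at 2.09 and 3.78 against 2.66 and 2.41 CPM. The part of such cells in the Mmp2 values was not tested.

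The other gelatinase, Mmp9, was low in every library, at 2.04 and 2.52 against 0.89 and 1.10 CPM (log2 fold change 1.19, SE 0.58). Its groups did not overlap, and its adjusted p was 0.651 in edgeR (0.418 to 1 over the same alternatives). Mmp9 is also a product of neutrophils. Of 6 tested neutrophil markers 4 were apart in the same direction (19.9% of all genes). Their list summed to 43.1 and 45.6 against 33.4 and 16 CPM, and Ngp was at 0 in tdTomato+ replicate 2. The part of neutrophils in the Mmp9 values was not tested. Mmp23, a membrane-anchored MMP, stood at 1.05 and 1.89 against 0.76 and 0.66 CPM (1.05, SE 0.68). Both Mmp9 and Mmp23 rest on few reads.

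Of 6 tested membrane-type MMPs, which act at the cell surface, 5 had a negative log2 fold change. The other, Mmp16, had the direction of Mmp2 (0.88, SE 0.60). Their median log2 fold change was -0.30, and none of the 6 had an unadjusted p under 0.05. Without overlap on CPM, 3 lay lower and 1, Mmp16, higher (18.2% and 19.9% of all genes). Mmp14, which activates the Mmp2 proenzyme together with Timp2, had 135 and 138 CPM against 170 and 157 CPM (-0.26, SE 0.16). Mmp15, a close relative, had 69.7 and 69.5 against 91.6 and 88.9 CPM (-0.38, SE 0.16). Mmp24 had 24.3 and 21.9 against 34.5 and 26.1 CPM (-0.39, SE 0.23). For each of these 3 the tdTomato+ libraries lay below both ZsGreen+ libraries, on CPM and on TPM. The ratio of Mmp2 to Mmp14 in TPM was 0.819 and 1.34 in tdTomato+ and 0.208 and 0.251 in ZsGreen+ libraries.

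Mmp12, the macrophage elastase, and Mmp19, an MMP of vessel walls and macrophages, had some of the larger differences but standard errors that were large beside them, and were named after their values were seen. Mmp12 had 19.0 and 5.20 CPM against 8.54 and 1.64 CPM (1.25, SE 0.84). Mmp19 had 21.5 and 9.77 against 13.4 and 2.79 CPM (0.96, SE 0.70). In both, tdTomato+ replicate 1 was highest, then ZsGreen+ replicate 1, then tdTomato+ replicate 2, and ZsGreen+ replicate 2 lowest, so the groups overlapped. The macrophage and monocyte sums, most of which were Lyz2 (3953 and 1969 against 2269 and 469 CPM), had that order. Of the 10 genes 5 had it (Lyz2, Chil3, Cd68, Csf1r and Siglecf) and 5 did not (Marco, Adgre1, Ear2, Mrc1 and Mertk). None of the 10 genes of that list was at 0, and 2 were apart and higher in tdTomato+ cells (19.9% of all genes). The part of such cells in the Mmp12 and Mmp19 values was not tested. Without ZsGreen+ replicate 1 the log2 fold change of Mmp12 was 2.88, and without ZsGreen+ replicate 2 it was 0.03. Leaving out a library gave Mmp19 log2 fold changes from 0.22 to 2.48. Within each replicate number tdTomato+ was the higher for both genes. A fit with a replicate block called both, as it did 7.09% of all genes. The labels do not say that these numbers mark shared mice.

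The remaining tested MMPs were the collagenase Mmp8, the stromelysins Mmp3 and Mmp11, and Mmp16, Mmp17, Mmp25 and Mmp28, with log2 fold changes from -0.36 in Mmp28 to 0.88 in Mmp16. Mmp28, known as epilysin, had 8.47 and 11.8 against 12.1 and 13.9 CPM. Its groups and those of Mmp16 were apart on CPM but overlapped on TPM.

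**Figure D3:**
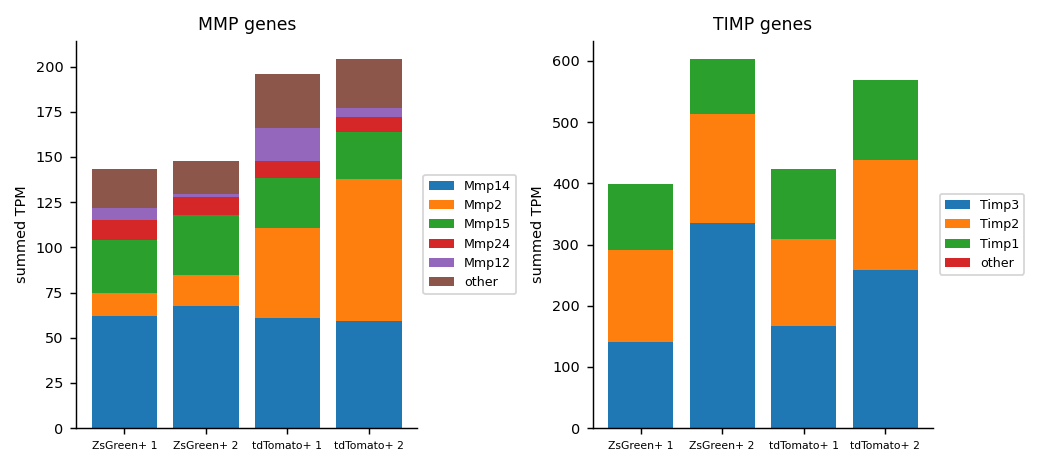
Stacked TPM of the MMP genes (left) and TIMP genes (right) in each library, with the largest contributors by colour. The MMP sum was 196 and 204 TPM in tdTomato+ against 144 and 148 TPM in ZsGreen+ libraries, and Mmp2 made up most of the gap.

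Summed over all MMP genes, transcripts reached 196 and 204 TPM in tdTomato+ and 144 and 148 TPM in ZsGreen+ libraries. Mmp2 was 25.5% and 38.6% of that sum in tdTomato+ cells and 8.98% and 11.4% in ZsGreen+ cells. The TIMP genes summed to 424 and 569 against 399 and 603 TPM, so transcripts of the inhibitors outnumbered those of the MMPs in each library and the groups overlapped. The ratio of MMP to TIMP sums was 0.462 and 0.359 in tdTomato+ and 0.360 and 0.245 in ZsGreen+ libraries, again with overlap. For the pair Mmp2 and Timp2 the ratio was 0.350 and 0.442 against 0.086 and 0.095, with the groups apart. These ratios are of RNA and do not measure protein or activity.

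None of the 3 tested TIMPs was apart in CPM, although Timp1 was on TPM (114 and 131 against 108 and 89.3 TPM), and leaving out a library turned the sign of each. Timp1, the inducible secreted inhibitor, had 48.7 and 59.4 against 57.8 and 40.0 CPM (0.15, SE 0.24). Timp2 had 301 and 396 against 393 and 394 CPM (-0.18, SE 0.21). Timp3, which binds the matrix and also inhibits ADAM17, had 461 and 751 against 479 and 971 CPM (-0.26, SE 0.38). Replicate 2 of each group was the higher for Timp3, and without ZsGreen+ replicate 2 its log2 fold change was 0.34. Exons of Timp3 overlap those of Syn3 on the opposite strand. Syn3 was listed at 16.4 and 11.4 against 5.32 and 7.01 CPM, and reads of the overlap cannot be told apart without strand. Timp4, the fourth inhibitor, had only 4 and 6 against 12 and 9 estimated counts and was not tested.

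**Figure D4:**
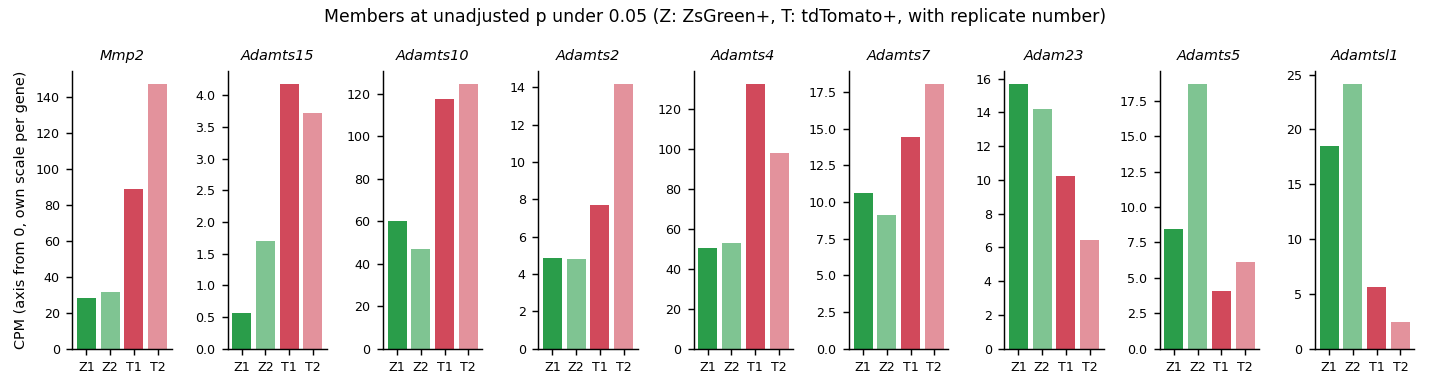
CPM of the 9 members at an unadjusted edgeR p under 0.05, each on its own axis from 0, with ZsGreen+ libraries (Z1, Z2) in green and tdTomato+ libraries (T1, T2) in red. Each bar is a single library, and in each of the 9 genes both libraries of a group lie on the same side of both of the other.

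ADAMTS genes made up most of the members with a small p. Of 12 tested, 5 were higher and 1 lower in tdTomato+ cells at an unadjusted p under 0.05 (5.62% and 3.15% of all genes). The groups were apart for the same 6 (19.9% of all genes higher and 18.2% lower), and the median log2 fold change was 0.37. Summed TPM of the family was 347 and 347 in tdTomato+ against 207 and 297 in ZsGreen+ libraries. Adamts1 alone gave 241 and 250 against 165 and 245 TPM of this.

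Adamts10 and Adamts4 had the smallest p of the family. Adamts10, on chr17:33523646-33553782, which binds fibrillin and is linked to Weill-Marchesani syndrome, had 118 and 125 CPM in the tdTomato+ and 60.2 and 46.7 CPM in the ZsGreen+ libraries. Its means were 121 ± 4.99 against 53.5 ± 9.56 CPM (SD, n = 2), a 2.27-fold difference (log2 fold change 1.18, SE 0.19, adjusted p = 0.0968 in edgeR, 0.000153 to 0.517 over the same alternatives). Adamts4, on chr1:171250129-171262267 and known as aggrecanase 1, had 133 and 98.1 against 50.3 and 53.1 CPM. Its difference was 2.23-fold (1.16, SE 0.20, adjusted p = 0.114 in edgeR, 0.000496 to 0.583 over the same alternatives). Both genes kept an unadjusted p under 0.05 when any of the 4 libraries was left out.

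The proteoglycan-cleaving ADAMTS genes did not all stand on the same side. Of 7 members 6 were tested. At an unadjusted p under 0.05, 2 stood higher (Adamts4 and Adamts15) and 1 lower (Adamts5), against 5.62% and 3.15% of all genes. Adamts15 had 4.18 and 3.73 against 0.57 and 1.70 CPM (1.78, SE 0.63, adjusted p = 0.454 in edgeR, 0.207 to 1 over the same alternatives). Adamts5, aggrecanase 2, on chr16:85858157-85901125, had 4.07 and 6.14 CPM against 8.42 and 18.7 CPM (-1.41, SE 0.46, adjusted p = 0.398 in edgeR, 0.051 to 1 over the same alternatives). Adamts4 and Adamts5, which both cut aggrecan and versican, thus lay on opposite sides, although the difference between them was not tested. Adamts1, the highest of the group, on chr16:85793827-85803113, had 697 and 758 against 588 and 742 CPM (0.13, SE 0.21). Adamts9, which cuts versican and aggrecan, had 51.0 and 48.6 against 25.2 and 50.5 CPM (0.39, SE 0.32), with ZsGreen+ replicate 1 alone low. Adamts1 and Adamts9 overlapped between the groups, and without ZsGreen+ replicate 1 the sign of Adamts1 turned (-0.03).

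Among the procollagen N-propeptidases, Adamts2, which trims fibrillar procollagens, had 7.70 and 14.2 against 4.87 and 4.82 CPM (1.17, SE 0.39, adjusted p = 0.423 in edgeR, 0.256 to 0.999 over the same alternatives). Adamts14, the other tested gene of that group, was at most 1.39 CPM in a library and overlapped between groups. Adamts7, which cuts cartilage oligomeric matrix protein, had 14.5 and 18.1 against 10.6 and 9.09 CPM (0.72, SE 0.27, adjusted p = 0.504 in edgeR, 0.291 to 1 over the same alternatives). Its exons overlap those of Tbc1d2b on the other strand, at 31.9 and 34.8 against 23.2 and 29.0 CPM, which was apart in the same direction.

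ADAMTSL proteins, which have no zinc-binding stretch, had a median log2 fold change of -0.64. Without overlap on CPM, 3 of 5 members were lower and 2 higher (18.2% and 19.9% of all genes). Adamtsl1, on chr4:85513852-86428390 and also called punctin, had 5.61 and 2.47 CPM in the tdTomato+ and 18.5 and 24.2 CPM in the ZsGreen+ libraries. Its means of 4.04 ± 2.22 and 21.3 ± 4.02 CPM (SD, n = 2) differed 5.28-fold, the largest absolute log2 fold change of the tested members (-2.40, SE 0.43, adjusted p = 0.117 in edgeR, 1.31e-05 to 0.445 over the same alternatives). Leaving out a library gave Adamtsl1 log2 fold changes from -3.11 to -1.90. Adamtsl2, a fibrillin-binding protein linked to geleophysic dysplasia, had 10.1 and 14.1 against 16.6 and 21.1 CPM (-0.64, SE 0.28), and its groups overlapped on TPM. Adamtsl5 had 5.61 and 7.56 against 12.4 and 8.98 CPM (-0.70, SE 0.34). Adamtsl4, which also binds fibrillin, was apart and higher in tdTomato+ cells, at 13.6 and 11.97 against 10.4 and 10.6 CPM (0.29, SE 0.27). Adamtsl3 was the other higher gene but stayed under 1 CPM, at 0.66 and 0.84 against 0.13 and 0.55 CPM (1.11, SE 0.92). Its groups overlapped on TPM.

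Lymphatic endothelial markers stood on the same side as Adamtsl1 and Adamts5. Of 6 tested, 5 were lower in tdTomato+ cells without overlap (18.2% of all genes). The edgeR test was passed by 2 (0.304% of all genes), Mmrn1 (15.8 and 11.7 against 74.5 and 161 CPM) and Reln (4.29 and 5.72 against 28.9 and 63.0 CPM). The summed list was 706 and 995 against 884 and 1159 CPM, which overlapped, and none of its genes was at 0. Lyve1 was the largest part of that sum in each library, at 503 and 840 against 407 and 593 CPM. It was also the only gene of the list with a positive log2 fold change (0.42, SE 0.31) and the only one whose groups overlapped. ZsGreen+ replicate 2 was the highest library for Adamtsl1 and Adamts5 and for Mmrn1, Reln and Prox1, but ZsGreen+ replicate 1 was for Flt4 and Pdpn, and tdTomato+ replicate 2 for Lyve1. The part of lymphatic cells in these values was not tested.

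ADAM transcripts differed little where they were abundant. Of 12 tested, 0 were higher and 1 lower at an unadjusted p under 0.05 (5.62% and 3.15% of all genes). On CPM 3 were apart and higher and 2 apart and lower (19.9% and 18.2% of all genes), and the median log2 fold change was 0.19. Adam15, a disintegrin of endothelial junctions, had 640 and 840 against 745 and 711 CPM (0.02, SE 0.21). Adam10, the sheddase of Notch and VE-cadherin, had 112 and 124 against 78.8 and 126 CPM (0.21, SE 0.24). Both overlapped between the groups, and leaving out a library turned the sign of each. Adam17, the tumour necrosis factor converting enzyme, had 74.9 and 64.6 against 52.8 and 63.4 CPM (0.26, SE 0.19). Adam9 had 61.6 and 62.5 against 40.4 and 61.5 CPM (0.28, SE 0.24). Both were apart, though by a narrow gap to ZsGreen+ replicate 2, and neither had an unadjusted p under 0.05.

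Adam23, a membrane protein without the zinc-binding stretch that binds integrins, was the ADAM at an unadjusted p under 0.05. Adam23 had 10.2 and 6.46 CPM against 15.7 and 14.2 CPM (-0.84, SE 0.32, adjusted p = 0.512 in edgeR, 0.327 to 0.999 over the same alternatives). Adam11, which also lacks the stretch, had 1.38 and 1.16 against 1.96 and 1.75 CPM (-0.55, SE 0.58), and the third such gene, Adam22, overlapped. Of the 9 tested ADAMs with the stretch, 8 had a positive log2 fold change and 3 were apart and higher, while of the 3 without it 2 were apart and lower. Of all 13177 genes tested, 6491 had a positive log2 fold change, 19.9% were apart and higher and 18.2% apart and lower. The difference between ADAMs with and without the stretch was not tested. Adam8, a protease of leukocytes, had 10.8 and 6.88 against 7.09 and 3.56 CPM (0.73, SE 0.45), with the 4 libraries in the order of the macrophage and monocyte sums.

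**Figure D5:**
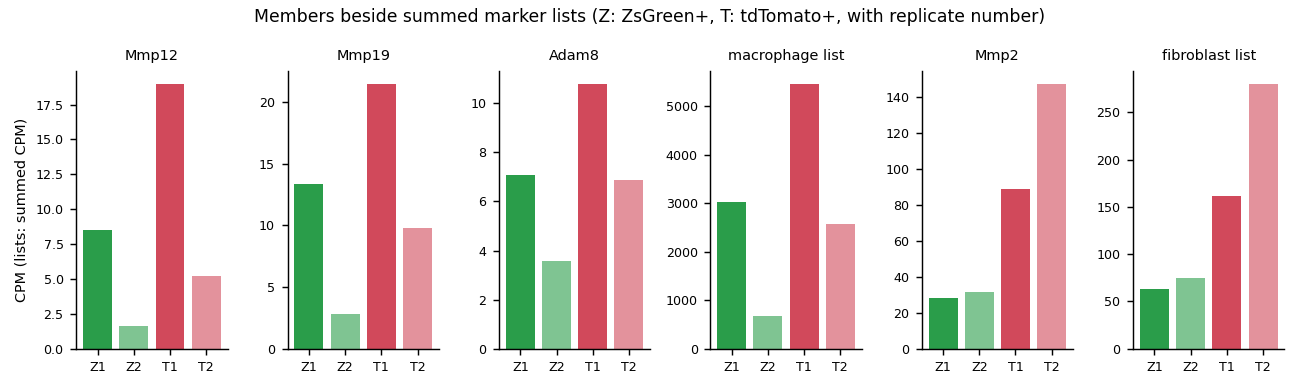
CPM of Mmp12, Mmp19, Adam8 and Mmp2 and summed CPM of the macrophage and monocyte and the fibroblast marker lists, a bar for each library, each panel on its own axis from 0. Mmp12, Mmp19 and Adam8 have the library order of the macrophage and monocyte sum, which not all genes of that list share. Mmp2 has the order of the fibroblast sum, which among its genes only Col1a1 and Clec3b share.

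The untested members were 6 Mmp, 1 Timp, 9 Adam and 6 Adamts genes, and none exceeded 15 estimated counts or 0.36 TPM in a library. Mmp1b, which was grouped here with the collagenases, the epididymal Adam7, and Adamts20 were at 0 in each library. Others with few reads were Mmp7, Mmp10, Mmp13, Mmp21, Mmp27, Adam1b, Adam3, Adam4, Adam5, Adam28, Adam30, Adam32, Adamts3, Adamts13, Adamts17, Adamts18 and Adamts19. Adam21, singled out after its values were seen, had 6 and 9 counts in tdTomato+ and 0 in both ZsGreen+ libraries, which is at least 2.35-fold higher against a floor of 3 counts per library. Adam1a, tested at 1.16 to 2.64 CPM, and the untested Adam1b have identical zinc-binding stretches. The rest of their sequences was not compared, and whether reads were split between these copies was not tested. Exons of Adam1a also overlap those of Mapkapk5 and Gm42878 on the same strand.

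Genes that control these enzymes were followed in lists outside the families. Of 11 tested activators, surface regulators and clearance receptors, 3 were higher and 2 lower at an unadjusted p under 0.05, where 5.62% and 3.15% of all genes were. The proprotein convertase Pcsk6 had 1.65 and 1.42 CPM in tdTomato+ against 10.7 and 31.2 CPM in ZsGreen+ cells (-3.77, SE 0.57, adjusted p = 0.0769 in edgeR). Its relative Pcsk5 lay on the other side, at 86.7 and 103 against 52.6 and 56.8 CPM (0.79, SE 0.18). Reck, a membrane-anchored MMP inhibitor, had 9.24 and 11.3 against 4.43 and 6.14 CPM (0.96, SE 0.34), and Lrp1, a receptor that clears MMPs, had 51.3 and 32.2 against 24.1 and 10.1 CPM (1.29, SE 0.43). Furin was the other lower gene, at -0.46 (SE 0.19).

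Of 7 tested trafficking partners of ADAM10 and ADAM17, 1 was higher and 2 lower at an unadjusted p under 0.05 (5.62% and 3.15% of all genes). The tetraspanins that escort ADAM10 lay on both sides, with Tspan15 at 32.1 and 31.6 against 59.7 and 63.1 CPM (-0.95, SE 0.18), Tspan14 at 176 and 154 against 254 and 224 CPM (-0.53, SE 0.18) and Tspan5 at 60.7 and 60.1 against 41.4 and 41.4 CPM (0.54, SE 0.17). Rhbdf2, the iRhom partner of ADAM17, had 81.0 and 87.9 against 77.7 and 68.1 CPM (0.21, SE 0.17). Among 7 tested genes of other matrix proteases and procollagen processing, 4 were higher and 2 lower at an unadjusted p under 0.05 (5.62% and 3.15% of all genes). The serine protease Htra1 had 108 and 142 against 42.8 and 25.6 CPM (1.87, SE 0.29). The procollagen C-proteinase Tll1 had 19.9 and 23.8 against 5.44 and 10.8 CPM (1.42, SE 0.37), and Pcolce, which enhances such enzymes, had 16.3 and 29.7 against 8.92 and 12.5 CPM (1.10, SE 0.35). Thsd4, an ADAMTSL relative, had 0.50 and 0.84 against 4.05 and 3.40 CPM (-2.46, SE 0.58).

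Among 11 tested matrix substrates 4 were higher and 2 lower at an unadjusted p under 0.05 (5.62% and 3.15% of all genes), and Fn1, encoding fibronectin, passed the edgeR test. It rose to 227 and 199 CPM against 73.4 and 48.6 CPM (1.80, SE 0.24, adjusted p = 0.0467 in edgeR). The other 3 higher genes encode proteins of vessel walls or plasma. Vwf, von Willebrand factor, had 2006 and 2961 against 947 and 845 CPM (1.47, SE 0.25), Fbn1, fibrillin, had 37.5 and 53.4 against 18.7 and 21.5 CPM (1.18, SE 0.24), and Eln, elastin, had 698 and 1390.3 against 422 and 346 CPM (1.44, SE 0.34). Among 12 endothelial membrane proteins that ADAMs or other proteases can shed, 5 were higher and 0 lower at an unadjusted p under 0.05 (5.62% and 3.15% of all genes). Vcam1, an adhesion molecule cut by ADAM17, rose to 294 and 276 CPM against 83.2 and 58.8 CPM (2.00, SE 0.22, adjusted p = 0.0304 in edgeR). Sele, E-selectin, had 577 and 471 against 211 and 150.5 CPM (1.54, SE 0.24). Procr, the endothelial protein C receptor, had 158 and 155 against 95.5 and 83.9 CPM (0.80, SE 0.17), and Cx3cl1, released by ADAM10 and ADAM17, had 64.5 and 77.9 against 46.0 and 34.2 CPM (0.83, SE 0.22). Between the same libraries the groups overlapped for Adam10 and were parted by a narrow gap for Adam17.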

How the data were processed

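Per the labels' protocols, RNeasy Micro extraction was followed by whole transcriptome amplification of a small RNA volume (Discover-sc WTA) and a TruePrep library for MGI sequencers. Amplification can widen the spread between libraries. The submitters' processing notes name RSEM 1.3.1 and DESeq2 1.4.5, with no role for either, and the builds mm10 and GRCm38. Not given in the sources used here are an aligner and whether counting used strand.

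The deposited table gives an estimated count per gene and library, which need not be whole and was rounded for tests. The authors also deposited TPM, used here for levels between genes. The FPKM columns, as the authors deposited them, and the deposited normalized counts, a signal scaled by library, were not used in the report.

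The groups were compared with edgeR 4.0.16 (R 4.3.3) over all 13177 genes that passed filterByExpr (minimum count 10), with TMM factors, its two-sided quasi-likelihood F-test and Benjamini-Hochberg adjustment at 0.05. CPM uses TMM-scaled library sizes, and each standard error is the size of the log2 fold change divided by the root of the F statistic. edgeR's common coefficient of biological variation came to 26.1%. With 2 libraries against 2 an exact permutation test cannot go below p = 0.333, so none is given. Replicates differed by more than sampling noise (chi-square per degree of freedom 34 and 64.9). Alternatives were DESeq2 1.42.0, limma-voom, limma on log2 of TPM plus 1 or 0.1 (limma 3.58.1), upper quartile or RLE factors, other count filters, leaving out each library and a replicate block. The test was checked on simulated data.

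Members, roles and lists were chosen with earlier results of these data known. Values in each library are given for the up to 6 tested members per family with the smallest p that averaged 1 CPM or more, for the 3 with the highest TPM, and for up to 4 genes of a pathway list with the smallest p. Others named are Mmp12, Mmp19, Mmp28, Mmp16, Adamts9, Adamts14, Adamtsl3, Adam22, Rhbdf2, Furin and genes with overlapping exons, not all of which are reported here. Zinc-binding stretches were read as coding bases from GENCODE M21, since a protein table was not used here.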

Additional observations from a re-analysis of the deposited data

How the results depend on the processing

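With 2 libraries per group, 0 of 47 tested members had an edgeR adjusted p under 0.05. That count was 4 with DESeq2, 4 with no filter on low counts (Adamts4, Adamts10, Mmp2 and Adamtsl1 in both), 1 with a minimum count of 50 (Mmp2), and 0 to 3 when a library was left out: Mmp2 without tdTomato+ replicate 1, Mmp2, Adamts10 and Adamtsl1 without ZsGreen+ replicate 1, and 0 without either of the others. With RLE or upper quartile factors, limma-voom and the TPM settings it stayed 0. Members higher at an unadjusted p under 0.05 numbered 4 to 8 and members lower 2 to 4 when a library was left out, and 1 stood lower under each of the 3 TPM settings, which also shift the median log2 fold change of all genes to 0.12, 0.13 and 0.10.

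The shared replicate numbers are not said to mark shared mice. Deviations of same-numbered libraries correlated at 0.455 over only 2 pairs, which cannot tell whether they share more than a number. A fit with the replicate block called 9 members (7.09% of all genes; Adamts5, Adamts15, Mmp19, Mmp12, Adamts4, Adamts10, Mmp2, Adamts2 and Adamtsl1, with edgeR adjusted p from 2.52e-16 in Mmp2 to 0.0257 in Adamts2), with 10 higher and 5 lower at an unadjusted p under 0.05.

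The median log2 fold change of members kept its sign under each setting. With limma on TPM plus 1 without a filter it was 0.097, and the median over all genes was 0.097 too. Among named members the sign turned in 8 cases, all on leaving out a library: Adam10 to -0.087 (range -0.087 to 0.58) and Adamts1 to -0.027 (range -0.027 to 0.302) without ZsGreen+ replicate 1, Adam15 to -0.163 without tdTomato+ replicate 2 and -0.012 without ZsGreen+ replicate 2 (range -0.163 to 0.205), Timp1 to -0.099 without ZsGreen+ replicate 2 (range -0.099 to 0.436), Timp2 to 0.006 (range -0.364 to 0.006) and Timp3 to 0.049 without tdTomato+ replicate 1, and Timp3 to 0.336 without ZsGreen+ replicate 2 (range -0.678 to 0.336). In 371 other cases the call was the same and in 22 a member passed the threshold only under the alternative. The cause of these changes was not tested.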
